A study of Homo sapiens with 4 samples.

Results

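The genes described here are 7 small structural RNAs made by RNA polymerase III. They are the signal recognition particle RNAs RN7SL1 and RN7SL2, the 7SK RNA gene RN7SK, the RNase MRP RNA gene RMRP, the RNase P RNA gene RPPH1, and the Y RNAs RNY1 and RNY3. They were chosen by symbol among 58736 listed features, taking the annotated gene and not its pseudogene copies, with earlier results of the same comparison known. That knowledge covered RN7SL2, so differences of the 7 between the groups are given as a description and were not tested. The symbol RMRP, has 2 gene identifiers, and both are given.

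Levels came from RNA sequencing of HEK293A, an established line of human embryonic kidney epithelial cells, in a study of gene regulation by FEN1, a flap endonuclease, guided by hairpin DNA probes. All 4 libraries came from wells that had been given FEN1 plasmid (1 µg) and then, after 48 h, DNA probes (500 pmol), with RNA prepared after 72 h. The negative control has 2 libraries, numbered 1 and 3, and so has the group that received NT1_hp2, numbered 2 and 3. What the control wells received as probe, what NT1_hp2 targets, and whether replicates are separate cultures are not stated, so each p-value reflects how far these 4 libraries scatter, and that scatter may be technical.

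RNA polymerase III transcribes short RNAs that are not translated and, unlike most mRNAs, carry no long poly(A) tail. RN7SL1 and RN7SL2 encode the RNA scaffold of the signal recognition particle, which brings ribosomes making secreted proteins to the endoplasmic reticulum. 7SK holds the transcription elongation kinase P-TEFb in an inactive particle. RNase P RNA is the catalytic part of the enzyme that trims the 5′ end of tRNA precursors, RNase MRP RNA is its relative in ribosomal RNA processing, and Y RNAs bind the Ro60 and La proteins. These RNAs are abundant in human cells. The genes of the signal recognition particle RNA, 7SK and the Y RNAs have many inactive copies in the genome, most of them derived by retrotransposition.

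RN7SL1 and RN7SL2 are close copies of each other and of RN7SL3, and all 3 genes are on chromosome 14. In the GENCODE 29 transcripts (GRCh38), compared without gaps, RN7SL1 matched RN7SL2 at 295 of 299 positions (98.7%) and RN7SL3 matched it at 288 of 299 (96.3%). Of the 251 windows of 50 bases in RN7SL2, 34 (13.5%) occur in no other annotated transcript, and of the 151 windows of 150 bases 52 (34.4%) do. The sources used here give neither read length nor the treatment of reads with several matches, so the division of reads among these 3 genes is uncertain.

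RNY1 is shown because, unlike the members described next, the Y RNAs share no exon with another gene and still had almost no reads. The sequence is from the GENCODE 29 transcript (GRCh38), written 5′ to 3′ as DNA, and capitals mark the run of T at its 3′ end, where RNA polymerase III stops.
RNY1: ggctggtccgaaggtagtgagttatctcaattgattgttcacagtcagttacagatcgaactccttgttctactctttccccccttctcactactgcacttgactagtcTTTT
RNY1 (113 bases) is at chr7:148987136-148987248 on the minus strand, and RNY3 (102 bases) is on the plus strand of the same chromosome. Aligned to each other, they were identical at 84 of 115 positions (73.0%). Neither shares exon bases with another annotated gene, but their letters recur elsewhere. Of the 53 windows of 50 bases in RNY3, 0 are found in no other annotated transcript, and 43 are in a Y RNA copy named RF00019. For RNY1 48 of 64 such windows are in no other transcript, and at 100 bases all 14 windows of RNY1 and all 3 of RNY3 are.

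The deposited values are FPKM, reads scaled to gene length in kilobases and to library size. Multiplied by gene length they gave whole reads, 12506203 to 14908687 per library in total, so the reads behind each member could be counted. A floor of 3 reads, for counting error only, amounts to 0.208 to 0.239 FPKM for a gene of 1 kilobase. The epithelial keratins KRT8 and KRT18 averaged 95.4 and 64.0 FPKM and the cadherin CDH2 15.2, whereas EPCAM, CDH1 and PAX2 stayed under 1 FPKM on average. Of the markers of other cell types, PTPRC and CD3E of blood and TTR of hepatocytes were at 0, and the highest was the collagen COL1A1 at up to 8.44 FPKM.

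Of the 7 RNAs, 1 was measurable. RN7SL2 had reads in every library, RNY1 had a single read in 1 library, and the other 5 were listed at 0 in all 4. RN7SL2 was also the 1 member with at least 1 FPKM in 2 libraries, the minimum for testing. These RNAs are used by every human cell, so a listed 0 is not read here as absence.

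The 4 RNAs RN7SL1, RN7SK, RMRP and RPPH1, all at 0, lie in exons of another annotated gene. All 299 bases of RN7SL1 are inside AL139099.4, on the same strand and 1 base longer. All 328 bases of RN7SK (chr6:52995621-52995948, plus strand) are inside a second 7SK entry, RF00100. RMRP (chr9:35657751-35658018, minus strand) is annotated once as a 268-base lincRNA and once as a 264-base ribozyme inside it, and RPPH1 (333 bases, chr14:20343075-20343407, minus strand) lies inside the longer antisense gene AL355075.4. The overlapping entries were at 0 as well, AL139099.4, RF00100, AL355075.4 and both identifiers of RMRP, in all 4 libraries.

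The same held for every other short gene in that position. Among genes of 90 to 400 bases with no base outside the exons of other genes, 0 of 657 had a read in any library. Among those with every base their own, 4107 of 10804 (38.0%) had one, and with 50% to under 100% own bases 226 of 451 (50.1%). With above 0% to under 50% it was 89 of 310 (28.7%), the class of the 268-base RMRP entry. Over genes of every length without a base of their own, 29 of 1894 (1.53%) had a read, with 9 reads at most. The listed 0 of RN7SL1, RN7SK, RPPH1 and the shorter RMRP entry therefore carries no information on how much of these RNAs the cells held. The longer RMRP entry has 4 bases of its own, and its 0 is not read as absence either. No difference between the groups can be read from these values.

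**Figure D1:**
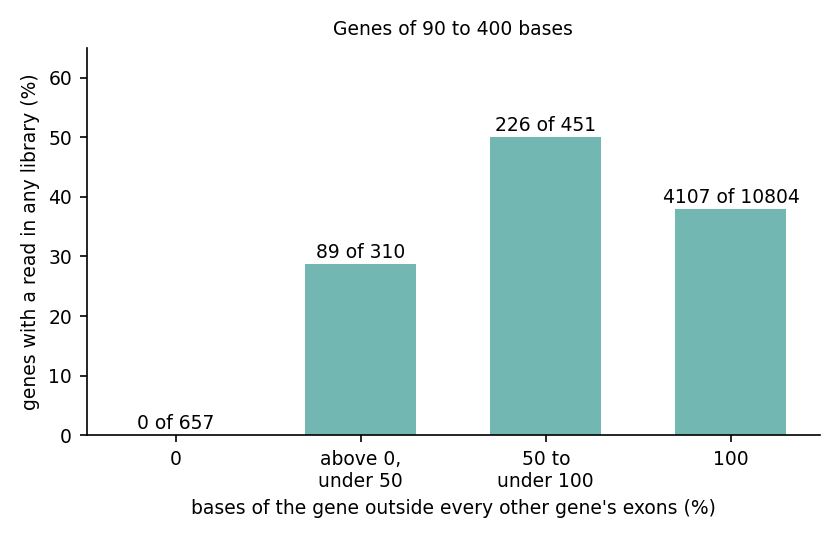
Share of annotated genes of 90 to 400 bases with at least 1 read in any of the 4 libraries (vertical axis, percent), by the share of the gene's bases outside the exons of all other genes (horizontal axis, percent). Bars carry the number of genes with a read and the number of genes, 0 of 657 where no base is the gene's own, the class that holds RN7SL1, RN7SK, RPPH1 and the shorter RMRP entry.

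The Y RNAs are not in that position. RNY3 was at 0 in all 4 libraries, where 3 reads would be 2.04 to 2.34 FPKM, so a level below that was not detectable at this depth. Reads of RNY3 that were shorter than the shared stretches could also belong to its copies. RNY1 was at 0 in both negative control libraries and in NT1_hp2 replicate 2, and at 0.623 FPKM (1 read) in NT1_hp2 replicate 3, below its floor of 1.84 to 2.11 FPKM. No difference between the groups can be read from these values, and no fold is given.

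Other small RNAs were as scarce. Of 13 other RNA polymerase III transcripts found by symbol, among them RNY4, vault RNAs and U6 genes, 8 were at 0 in all 4 libraries although none lacks bases of its own. The highest were BCYRN1, a primate RNA related to the SRP RNA, with 9 reads over the 4 libraries, and RN7SL3 with 11, while VTRNA1-1 and RNU6-7 had 2 each. Of 17 RNA polymerase II genes for spliceosomal, U7 and telomerase RNA, 11 were at 0, with 3 lacking bases of their own. RNU5A-1, a U5 RNA gene, led them with 32 reads, RNU5F-1 had 14, RNU4-1 had 4 and RNU4-2 had 3. A selection of RNA for poly(A) tails or for size is not described in the sources used here, and the part of either in these low values was not tested.

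RN7SL2 was lower in the cells given NT1_hp2. It measured 40.1 and 28.1 FPKM in negative control replicates 1 and 3, and 3.78 and 7.98 FPKM in NT1_hp2 replicates 2 and 3. Both NT1_hp2 libraries were below both control libraries, and the groups did not overlap. The reads behind these values were 173 and 106 in the control and 16 and 34 in NT1_hp2, which is 0.00116% of all recovered reads at most.

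In each of the 4 pairings of a control with an NT1_hp2 library, RN7SL2 was 3.52 to 10.6 times as high in the control. Within the groups the higher library exceeded the lower 1.42 times in the control and 2.11 times in NT1_hp2. The means were 34.1 ± 8.43 and 5.88 ± 2.97 FPKM (SD, n = 2 each), a difference of −2.40 on the log2(FPKM + 1) scale. Counting error alone gave a ratio of NT1_hp2 to control of 0.171 (95% exact binomial interval 0.124 to 0.231), an interval that covers neither differences between cultures nor reads shared with other genes. Among the 16362 features tested, 13.9% passed the test in either direction (limma-trend, adjusted p under 0.05). Both NT1_hp2 libraries lay below both of the control in 34.8% of all 16362, and above both in 5229 of them. RN7SL2 was chosen with this difference known, so nothing is read from its place among them.

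RN7SL2 lies in an intron of the lincRNA gene AL627171.2 on the same strand. That gene had 9 and 12 reads in the control and 16 and 17 in NT1_hp2, few reads, with both NT1_hp2 libraries above both of the control. RN7SL3, the nearest by sequence among the RN7SL genes other than RN7SL1, had 6 and 2 reads in the control and 2 and 1 in NT1_hp2. Its values reach from 0.236 to 1.39 FPKM around a floor of 0.697 to 0.799, which is too few reads for a comparison.

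The other annotated RN7SL genes, taken as a sum, were not lower in NT1_hp2. The 847 others, 314 of them with a read, held 32.9 and 43.0 RPM (reads scaled to library size, FPKM without the gene length) in the control and 44.8 and 47.9 in NT1_hp2, a ratio of means of 1.22. Both NT1_hp2 libraries were above both of the control, with NT1_hp2 replicate 2 close to negative control replicate 3. Without negative control replicate 1 the ratio was 1.08.

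RN7SL2 took 26.8% and 16.4% of the reads of all RN7SL genes in the control, and 2.47% and 4.76% in NT1_hp2. With RN7SL2 included, the sum came to 44.9 and 51.4 RPM in the control and 46.0 and 50.3 in NT1_hp2. On the log2 scale the 2 groups then differed by 0.0013, and their libraries overlapped. Reads assigned to RN7SL2 were lower in NT1_hp2, and the total assigned to the family was not. That total holds nothing for RN7SL1, the closest to RN7SL2 in sequence, whose listed 0 carries no information on its level.

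**Figure D2:**
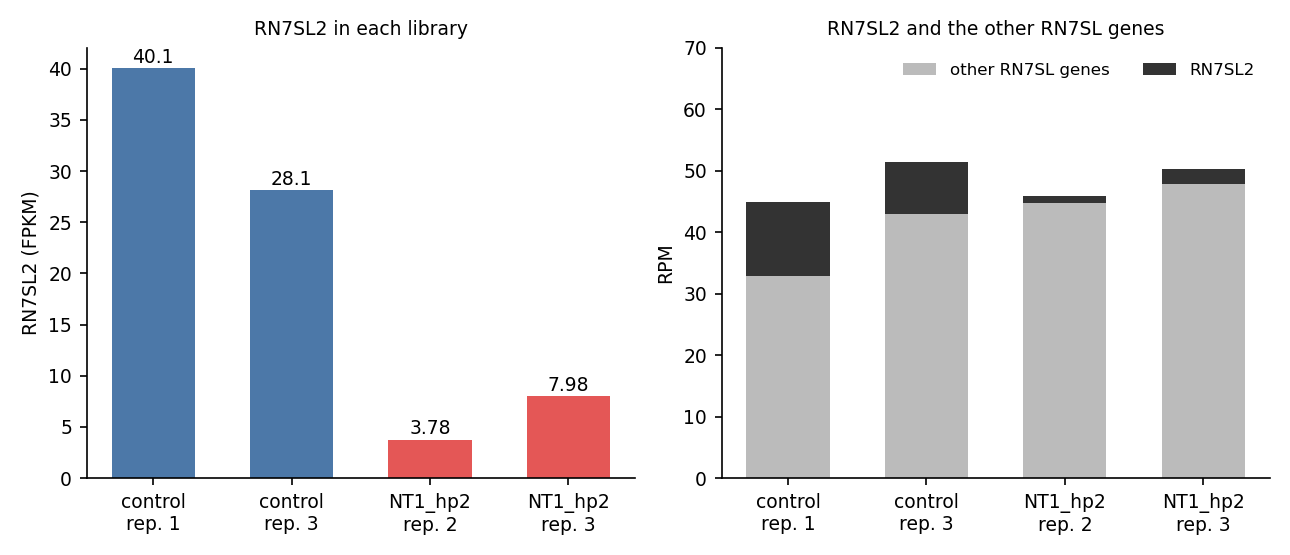
Left, FPKM of RN7SL2 in each of the 4 libraries (bars start at 0, blue for negative control, red for NT1_hp2), from 3.78 to 40.1. Right, RPM assigned to RN7SL2 (black) on top of those assigned to the other 847 RN7SL genes (grey), whose sum lies between 44.9 and 51.4 in all 4 libraries.

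How far those other genes resemble RN7SL2 bears on this sum. RN7SL3 was the only one above 95% identity among 846 aligned, RN7SL1 aside, and none lay between 90% and 95%. The 305 copies of 80% to 90% identity held 12.2 and 17.3 RPM in the control and 17.1 and 18.9 in NT1_hp2, and the 540 below 80% held 19.4 and 24.5 against 26.1 and 28.0. The most abundant copy, RN7SL417P on chromosome 15, had 76 and 43 reads in the control and 56 and 63 in NT1_hp2, so its groups overlapped. It lies within AC243562.2 on the same strand.

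Most copies of these RNAs sit inside other genes. Of the RN7SL copies 60.7% lie within the span of another gene, and these held 86.3% of the family's reads. For 7SK copies the figures were 55.7% and 88.9%, and for Y RNA copies 65.1% and 86.3%. Reads of such copies can belong to unspliced RNA of the surrounding gene, and the library kit does not mark strand.

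The summed copies of 7SK and Y RNA were higher in NT1_hp2, as those of RN7SL were. The 300 copies of 7SK held 7.78 and 12.02 RPM in the control and 14.7 and 15.1 in NT1_hp2 (ratio of means 1.502), and the 812 copies of Y RNA held 30.4 and 45.6 against 58.3 and 53.1 (1.47). In both families the 2 NT1_hp2 libraries were above both of the control, and negative control replicate 1 was the lowest. Without it the ratios were 1.24 and 1.22. The tested copies had median log2 differences of 0.26 for RN7SL (39 copies), 0.17 for 7SK (10) and 0.27 for Y RNA (112). Both NT1_hp2 libraries were above both of the control in 12, 5 and 37 of these, and in 5229 of all 16362 tested features. A copy needed at least 1 FPKM in any 2 libraries, so some entered through 1 group alone. RN7SL388P was at 0 and 0 FPKM in the control and 1.04 and 1.25 in NT1_hp2. RN7SL399P was at 1.24 and 1.43 against 0.254 and 0.505 FPKM. At so few reads the filter itself shapes these medians and counts, so they are a description only. Among all 1139 tested genes of 90 to 400 bases the median was 0.20. That set contains such copies and passed the same filter, so it cannot show whether the rise is particular to them. The 1 RMRP copy and the 2 RPPH1 copies had no reads.

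Genes within introns were also summed, first 894 annotated as sense intronic. How far these follow unspliced RNA was not tested. They held 523 and 642 RPM in the control and 700.3 and 702 in NT1_hp2, so they moved in the same direction as the copies, again with negative control replicate 1 lowest. The part of unspliced RNA in the values of the copies was not tested. A further set held 2299 other genes of 90 to 400 bases inside the span of another gene, with all bases their own. It was limited to annotated classes of small RNA and pseudogene, small nucleolar RNA among them. It is therefore not a measure of unspliced RNA alone. Its levels were 710.01 and 727 RPM in the control against 729 and 719.7 in NT1_hp2.

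**Figure D3:**
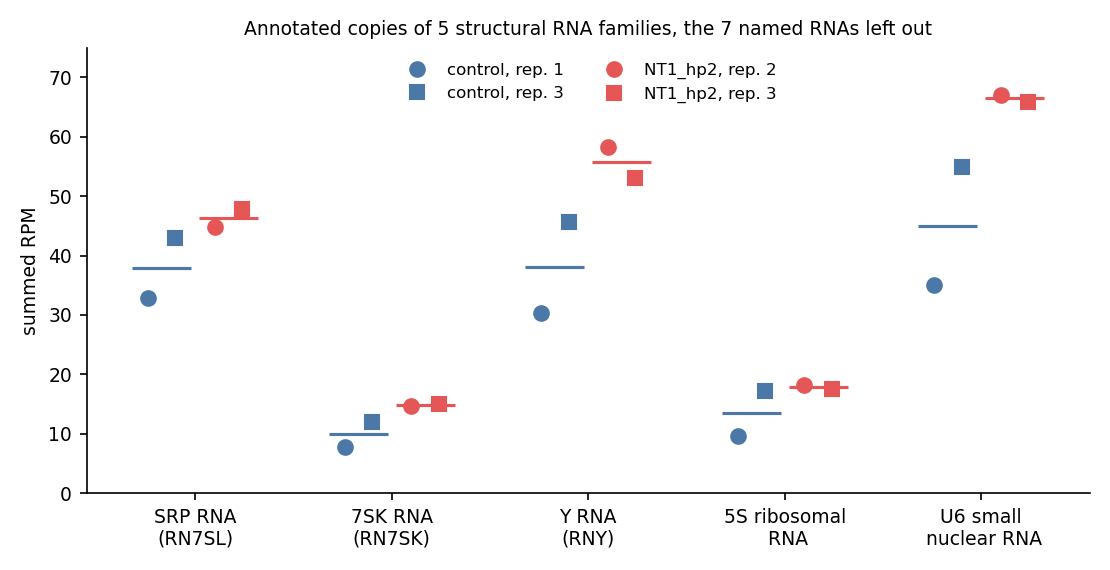
RPM summed over the annotated copies of 5 structural RNA families in the 4 libraries (vertical axis), without the 7 named RNAs. Blue symbols are negative control, red symbols NT1_hp2, and short lines the group means. In each family the red symbols lie above the blue ones, and negative control replicate 1 is lowest.

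Genes with levels like those of RN7SL2 across the 4 libraries were sought among 8326 tested genes that are named, are at least 200 bases long and average 5 FPKM or more. Likeness was the Euclidean distance between log2(FPKM + 1) values centred on each gene's mean, and RN7SL2 was the 1 member with enough signal for it. The nearest were EGR1, an immediate early transcription factor (distance 0.72), MT-ATP8, a mitochondrially encoded ATP synthase subunit (0.77), and FOS, another immediate early factor (0.86). EGR1 measured 50.3 and 34.4 FPKM in the control and 6.39 and 5.99 in NT1_hp2. With 4 libraries in 2 groups this is a likeness of group difference for the most part, and no more is read from it.

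Of the proteins that make, bind, trim or degrade these RNAs, 12 of 86 tested genes passed, 3 higher and 9 lower in NT1_hp2 (limma-trend, Benjamini-Hochberg adjusted p under 0.05). That is 14.0%, near the 13.9% of all tested features, of which 5.00% were higher and 8.92% lower. In the same fit 37 of the 86 genes, and 6061 of all 16362 features, had an unadjusted p under 0.05. With libraries scaled to their totals the split of genes that passed was 7 higher and 8 lower. With the same genes tested, none of the 12 passed in limma-trend once any 1 of the 4 libraries was left out (0 of 86 each time, with 18 to 34 at an unadjusted p under 0.05), nor without the filter on low values (0 passed, 33 unadjusted). With the filter repeated on the 3 libraries left, an alternative chosen after seeing the data, 14 of 85 passed without negative control replicate 3 (1 higher, 13 lower) and 0 without each of the others. The number of calls thus depended on the libraries and the filter used. The lists were drawn up with earlier results of these data known. Each was described by counts and by the median log2 difference, which was −0.08 for the 86 genes and −0.0075 for all features.

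Of 18 RNA polymerase III subunit genes, 1 rose and 4 fell (median log2 difference −0.04), against 5.00% and 8.92% of all tested features. The 3 largest decreases were in subunits that RNA polymerases I and II also contain. POLR2L went from 35.2 and 25.9 FPKM in the control to 8.74 and 12.1 in NT1_hp2, which is −1.47 on the log2 scale with an SE of 0.21 (adjusted p = 0.0340 in limma-trend). POLR2F was at 4.52 and 3.63 against 1.70 and 1.86 FPKM, and POLR2E at 31.98 and 27.8 against 19.2 and 20.1. In all 3 the groups did not overlap, as was so for 34.8% of all 16362 tested features in this direction. POLR2L has 885 of its 1142 bases outside the exons of other genes, so part of its reads is uncertain.

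Among subunits found in RNA polymerase III alone, POLR3C, part of the initiation subcomplex, rose. It went from 11.96 and 11.7 FPKM to 16.5 and 15.5 (log2 difference 0.40, SE 0.066). Its groups did not overlap, as was so for 5229 of all 16362 tested features in this direction. POLR3A, the largest subunit, was at 8.54 ± 0.128 and 9.20 ± 0.270 FPKM (SD, n = 2) and did not pass, nor did the second largest, POLR3B, at 2.10 ± 0.0837 and 1.88 ± 0.0378.

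Of 19 initiation factors, including the repressor MAF1, 1 rose and 0 fell (limma-trend). Of the 19, 8 had an unadjusted p under 0.05, as did 6061 of all 16362 features. SNAPC3, a subunit of the complex that recognises the upstream promoters of 7SK, RMRP, RPPH1 and Y RNA genes, went from 6.13 and 6.26 FPKM to 8.39 and 8.22 (log2 difference 0.37, SE 0.067). Its groups were apart by more than their spread, and 5229 of all 16362 features had groups that did not overlap in this direction. GTF3C5, a TFIIIC subunit, was at 63.7 and 57.5 against 49.7 and 49.98 FPKM without passing, and MAF1, which represses RNA polymerase III when nutrients are short, at 37.8 and 28.1 against 21.6 and 20.8 (adjusted p = 0.0590).

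No gene for a protein of the signal recognition particle passed the test. Of the 8 genes for its proteins and receptor 0 passed in limma-trend, and the median log2 difference was 0.10. Of the 8, 3 had an unadjusted p under 0.05, as did 6061 of all 16362 features. SRP9 and SRP14 form the pair that binds the Alu end of the SRP RNA. SRP9 measured 164 and 153 FPKM in the control and 179 and 173 in NT1_hp2, and SRP14 85.9 and 74.0 against 65.4 and 68.2. SRP54, which binds the signal peptide, was at 13.3 ± 0.0765 and 15.8 ± 1.43 FPKM (SD, n = 2) without passing (adjusted p = 0.116).

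In the 7SK particle and P-TEFb the mRNAs of 2 of 7 tested partners fell and 1 rose. Of all tested features 8.92% were lower and 5.00% higher. HEXIM1, the protein that inhibits P-TEFb when bound to 7SK, went from 32.9 and 28.7 FPKM to 16.6 and 17.2 (log2 difference −0.83, SE 0.085, limma-trend adjusted p = 0.0340). MEPCE, which caps 7SK at its 5′ end and stays bound to it, went from 16.2 and 14.4 to 9.03 and 8.81 (−0.71, SE 0.079). Both NT1_hp2 libraries were below both of the control in each, as was so for 34.8% of all tested features. CCNT1, the cyclin of P-TEFb, rose from 19.3 and 18.4 to 23.1 and 22.9 FPKM (0.28, SE 0.062, adjusted p = 0.0496), but did not pass with median-of-ratios factors or without robust shrinkage.

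The remaining 4 of the 7 did not pass. LARP7, the protein that holds the 3′ end of 7SK, was at 9.88 and 8.38 against 8.62 and 8.61 FPKM, and the kinase CDK9 at 16.5 ± 0.630 and 14.9 ± 0.488 (SD, n = 2). Since 7SK itself has no usable value in these files, its level cannot be set beside those of its proteins.

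Of 10 tested genes for RNase P and MRP proteins 0 passed in limma-trend. Of the 10, 4 had an unadjusted p under 0.05, as did 6061 of all 16362 features. The median log2 difference was −0.23, and the most abundant were POP7 (34.4 and 25.9 against 22.4 and 22.6 FPKM) and RPP25L (22.3 and 20.6 against 16.8 and 13.5, adjusted p = 0.0560), both RNA-binding subunits. Their control and NT1_hp2 libraries did not overlap, as was so for 34.8% of all tested features in this direction.

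Among 8 tested proteins that bind Y RNAs or La, 3 fell and 0 rose, against 8.92% and 5.00% of all tested features. YBX1, a cold shock domain protein, went from 380 and 334 FPKM to 265 and 264 (log2 difference −0.43, SE 0.093), NCL, the nucleolar protein nucleolin, from 87.3 and 79.5 to 65.3 and 62.9 (−0.37, SE 0.078), and the splicing factor PUF60 from 21.0 and 18.4 to 12.6 and 14.8 (−0.49, SE 0.11). All 3 have wider roles than Y RNA binding. PUF60 and YBX1 did not pass with median-of-ratios factors or without robust shrinkage. RO60, the Ro protein itself, named after its values were seen, was at 5.27 and 6.64 against 8.98 and 8.44 FPKM without passing (limma-trend adjusted p = 0.0538), and SSB, which encodes La, at 16.2 ± 2.79 and 14.9 ± 1.29 (SD, n = 2).

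The exosome and other enzymes that trim or degrade such RNAs showed no called gene. Of 16 tested 0 passed in limma-trend, and the median log2 difference was −0.04. Of the 16, 4 had an unadjusted p under 0.05, as did 6061 of all 16362 features. EXOSC2, an RNA-binding cap subunit of the exosome, was at 29.96 and 31.6 against 32.4 and 31.5 FPKM with overlapping groups, and EXOSC8, a ring subunit, at 15.7 and 14.98 against 19.97 and 17.6 (adjusted p = 0.0838). DIS3L2, an exonuclease known for uridylated RNA polymerase III transcripts, was at 1.80 ± 0.0711 and 1.63 ± 0.219 FPKM (SD, n = 2).

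**Figure D4:**
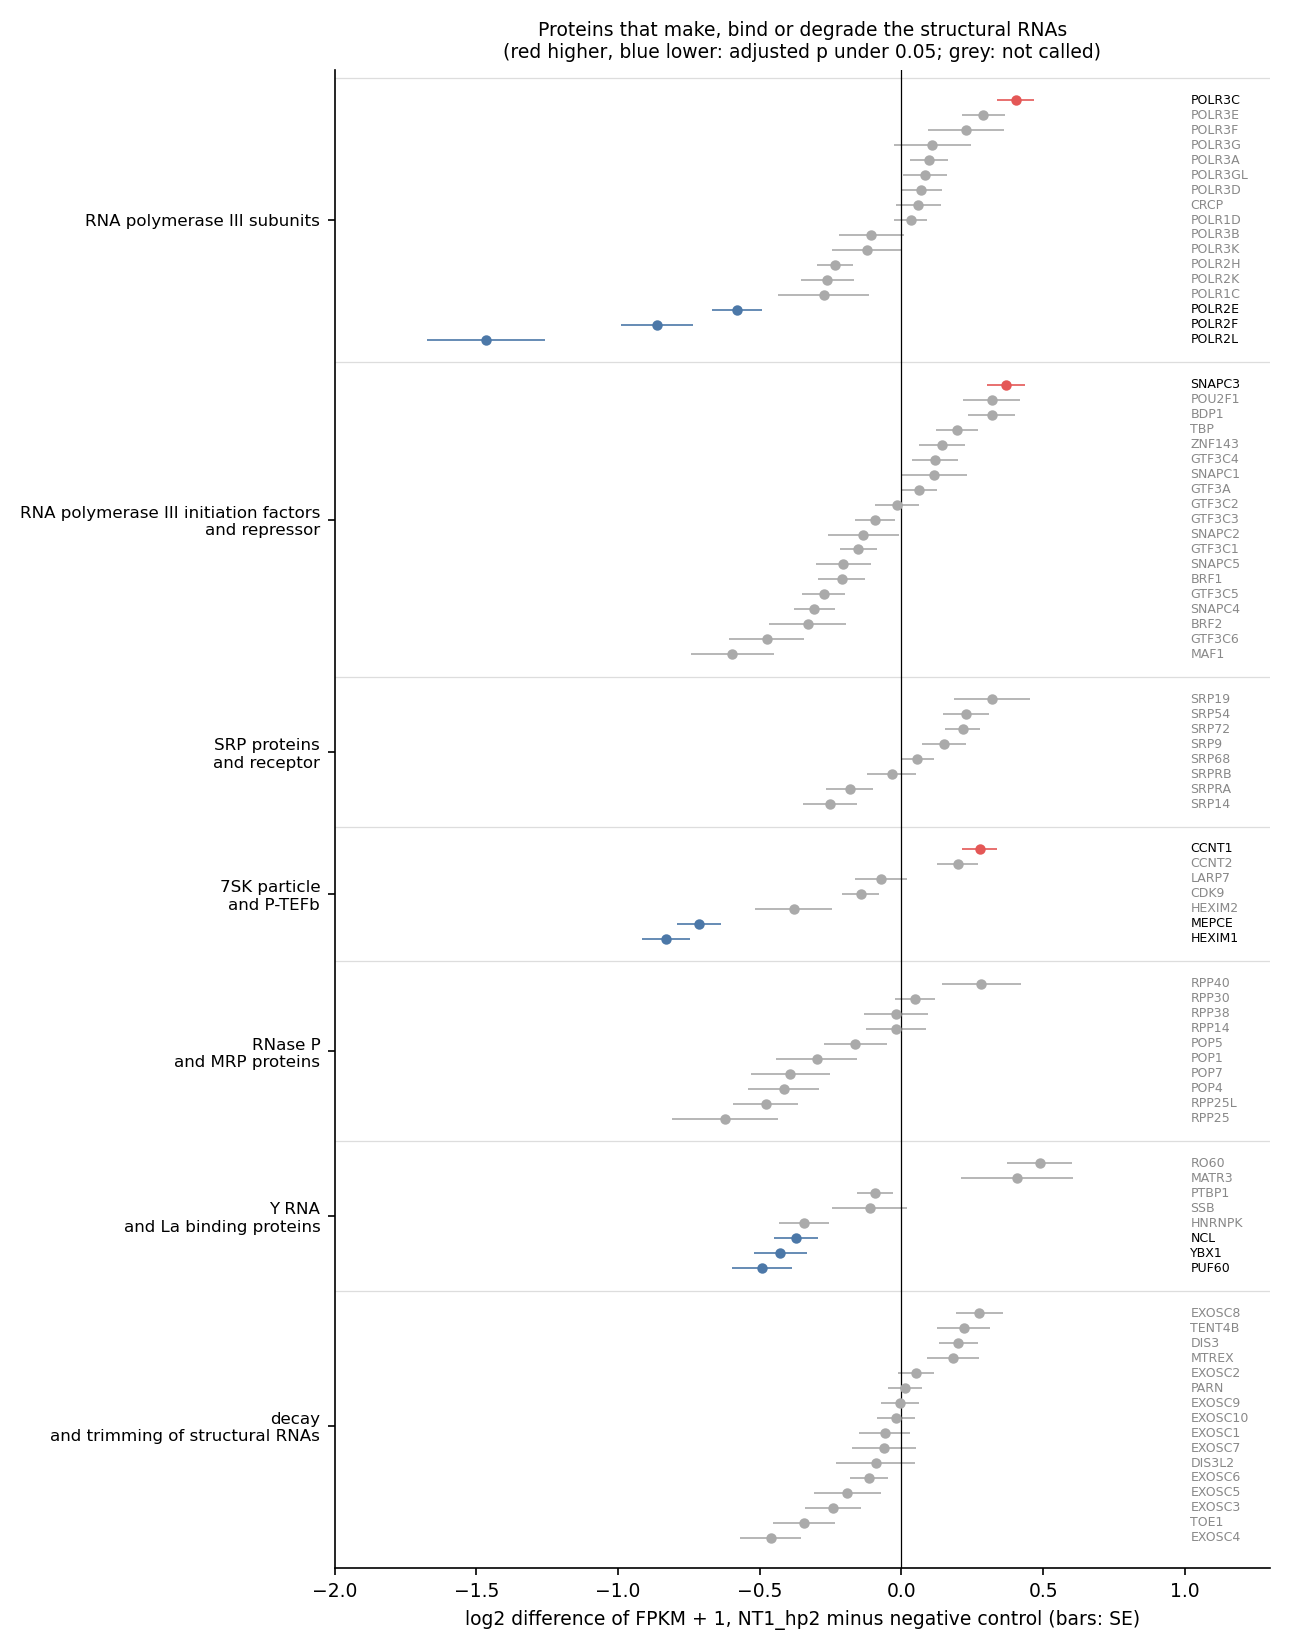
Log2 difference of FPKM + 1 between NT1_hp2 and negative control for tested genes of 7 lists, with 1 of the 86 not shown (points, with SE bars from the fit), 1 row per gene. Red marks genes that were higher and blue those that were lower at an adjusted p under 0.05, grey the others, with POLR2L farthest from 0 at −1.47.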

How the data were processed

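Groups and replicate numbers were taken from sample titles. The authors deposited 1 table per library with an FPKM value per gene; the unit was inferred from the values, since headers name only gene and library. The submitters' processing notes name build GRCh38.p12; the sources used here do not name aligner, counter or scaling. Values times GENCODE 29 exon length were whole multiples of a step within 0.01 for 100% of values above 0 in each library, which gave reads (an EGFP row was left out). RPM values use the library size implied by that step, 0.966 to 1.04 times the recovered total.

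Features with at least 1 FPKM in 2 libraries were compared with limma 3.58.1 (R 4.3.3; trend, robust) on log2(FPKM + 1), which understates changes at low levels, with Benjamini-Hochberg adjustment over all 16362. The fit was also run on simulated data with the same excess scatter assumed for every gene. That run does not show how well the fit works on these libraries. Copies were aligned to RN7SL2 with edlib 1.3.9.post1, and RN7SL1 and RN7SL3 also without gaps, a choice made after a gapped alignment of equal cost was seen. Libraries differed by more than sampling noise (chi-square per degree of freedom 2.83 at least), so none was treated as a copy of another; this does not show that they are separate cultures.

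Members and lists were chosen with earlier results of these data known. Named genes are the members, up to 6 that passed per list or otherwise the 2 most abundant, the 4 most abundant small RNAs of 2 lists, and the 3 genes most like RN7SL2. POLR3A, POLR3B, SRP54, LARP7, CDK9, RO60, SSB, DIS3L2, AL627171.2 and RNU6-616P and other single copies were added after values were seen. None of the members was in the RefSeq promoter table, so promoter motifs were not counted. Alternatives were 3 scalings, a pseudocount of 0.1, no filter, limma-voom on reads, no robust shrinkage, copies summed with RN7SL2, and omission of each library. A subunit gene and some sequences are not reported here.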

Additional observations from a re-analysis of the deposited data

How the results depend on the processing

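RN7SL2 stayed lower in NT1_hp2 under the 3 scalings, the pseudocount of 0.1, limma-voom and the omission of each library (log2 difference −2.86 to −1.94 without 1 library). The sum of RN7SL2 and its copies was at 0.0013, with no decrease. RN7SL2 held 26.8% and 16.4% of that sum in the control and 2.47% and 4.76% in NT1_hp2. The sum thus mainly follows other genes and does not show that the decrease of RN7SL2 goes away. No paired analysis was possible because the groups share only 1 replicate number. Over all features 2278 passed (818 higher, 1460 lower), 0 without the filter (6778 at an unadjusted p under 0.05, limma-trend), 5617 with limma-voom, and 1529 higher against 1323 lower with library totals. Of the protein partners 12 passed, 0 without the filter (33 unadjusted) and 38 (14 higher, 24 lower) with limma-voom. With 1 library left out, where the lone sample of a group is assumed to vary like the other group, 0 to 1 features and 0 to 0 partners passed in limma-trend, at 3315 to 5836 and 18 to 34 with an unadjusted p under 0.05. With the filter repeated on the 3 libraries, an alternative chosen after seeing the data, 1854 features and 14 partners passed without negative control replicate 3, against 0, 5 and 13 features and 0 partners without negative control replicate 1, NT1_hp2 replicate 2 and NT1_hp2 replicate 3. The cause of these differences in the number of calls was not tested. At this depth RNY1 and RNY3 could not be told from levels under 3 reads, and the other 4 members at 0 share their exons with another gene.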

Other observations

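The summed copies of 2 further RNA polymerase III families, like those of 7SK and Y RNA, were higher in both NT1_hp2 libraries than in both of the control. The 1313 copies of U6, the small nuclear RNA at the core of the spliceosome, held 35.1 and 54.8 RPM in the control and 67.1 and 65.9 in NT1_hp2 (ratio of means 1.48, and 1.21 without negative control replicate 1). The 529 copies of 5S ribosomal RNA held 9.65 and 17.2 against 18.3 and 17.5 RPM (1.33, and 1.04 without that replicate). These sums are over all annotated copies and were not tested. Among single tested features, 5229 of 16362 had both NT1_hp2 libraries above both of the control. RNU6-616P, the U6 copy with most reads, had 55 and 63 reads in the control and 104 and 93 in NT1_hp2.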
